A study of Drosophila melanogaster with 2 samples.

Results

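Among the strongest binding regions of NC2alpha in Drosophila melanogaster embryos, 484 peaks lay between genes and away from every annotated gene start. They were taken from the 5000 strongest of 30000 peaks that the authors called on pooled replicates, ranked by the signal given for each peak. A peak was kept where its summit, the base of highest signal, was more than 1000 bp from every transcription start site (TSS) of any gene and outside every gene of Ensembl release 115, on Release 6 of the genome (dm6). Of the other peaks among the 5000, 3136 had a summit within 1000 bp of a TSS, and 1380 lay farther from any TSS but inside a gene. The chromatin came from whole, mixed-sex embryos aged 0 to 24 hours of a transgenic line that stably expresses NC2alpha with eGFP at its C terminus. The fusion protein was precipitated with an antibody against GFP, in 2 biological replicates of a single group, so no condition was compared. All cell types and ages of the collection were pooled, and binding in fewer cells cannot be told apart from weaker binding in each cell. No source used here gives the promoter that drives the fusion protein. Because signal chose the regions, their signal values are given as a description with no test, and no p-value is reported.

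NC2 is a pair of histone-fold proteins, NC2alpha and NC2beta, that clamps TATA-binding protein (TBP) on DNA and blocks the entry of TFIIA and TFIIB. It is known as a repressor of TATA-containing promoters, and in Drosophila also as an activator of promoters that carry the downstream promoter element. Peaks away from promoters in this genome often fall at enhancers or at insulators, which are bound by zinc finger proteins such as CTCF and Su(Hw).

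Among 6-base words at these summits, ACACTG had the highest share relative to the sequence around them, and reading the letters beside it led to the 7-base word TACACTG followed by a short run of A. Sites of 9 strong peaks that hold the word with AAA from the fifth base after it are shown along the strand that reads the word, on dm6 from RefSeq's copy of Release 6. Capitals mark the word and the AAA, and each line names the flanking genes, the nearest gene on either side of the summit.
slp1 and slp2, chr2L:3832571-3832600, minus strand: gcagccagTACACTGagaaAAAtattacaa
tup and lncRNA:CR44737, chr2L:18890327-18890356, minus strand: cgtataaaTACACTGaggaAAAtagatttc
Doc2 and lncRNA:CR46451, chr3L:9023692-9023721, plus strand: gcacagaaTACACTGaagaAAAattatgaa
Ids and lncRNA:CR45737, chr3L:3382513-3382542, plus strand: atgcctcgTACACTGagagAAAaatcatta
lncRNA:CR44499 and rux, chrX:6031969-6031998, minus strand: gggacgggTACACTGgggaAAAaaacccta
CG43401 and CG43402, chr2L:1433965-1433994, minus strand: tcccaacaTACACTGagagAAAatcgtaat
Caf1-180 and oc, chrX:8627372-8627401, minus strand: gtaactgtTACACTGatccAAAtggaacaa
lncRNA:CR43681 and salm, chr2L:11417750-11417779, minus strand: gaggttctTACACTGcgaaAAActatacat
Doc2 and lncRNA:CR46451, chr3L:9025961-9025990, minus strand: cagattggTACACTGagcgAAAatgtggca

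Of 27 known motifs searched, the cores bound by CTCF and Su(Hw) had the highest shares relative to comparable sequence between genes. Sites of 4 strong peaks with the Su(Hw) core TGCATACTT are shown first, then those of 4 with the CTCF core AGGTGGCGC, with the core in capitals.
Glut3 and lncRNA:CR45750, chr3R:16798784-16798813, minus strand: aacaaatttcTGCATACTTttaggcatgag
osp and CG15282, chr2L:14706383-14706412, plus strand: actaaaatgtTGCATACTTttagggataca
CG17570 and CG12617, chr2L:20287463-20287492, plus strand: tgaaatgcgtTGCATACTTttgtgcggcaa
CG3008 and CG15625, chr2L:4887493-4887522, minus strand: agatctcagtTGCATACTTttttctctgtg
osp and CG15282, chr2L:14706327-14706356, minus strand: atttgcctatAGGTGGCGCggattacagag
Jhbp1 and CG14662, chr3R:4970804-4970833, plus strand: tgcgtgtaatAGGTGGCGCgatatacagtt
soti and cv-c, chr3R:14391403-14391432, minus strand: gtgcccgtgtAGGTGGCGCttgccggtgat
CadN and CadN2, chr2L:17784789-17784818, plus strand: tatgacacatAGGTGGCGCtgaagccaatt

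Whole summit windows of 151 bases are shown for 2 strong peaks, on the plus strand. In the window between COX7AL2 and CG31668, which has the highest signal of the peaks whose sequence is shown, the capitals are 2 copies of the TATA box letters TATAAA, read on the minus strand. In the window between slp1 and slp2 they are the word with AAA, read on the minus strand, and 2 copies of GGTCACAC, the element bound by the promoter factor M1BP.
COX7AL2 and CG31668, chr2L:2202317-2202467, plus strand: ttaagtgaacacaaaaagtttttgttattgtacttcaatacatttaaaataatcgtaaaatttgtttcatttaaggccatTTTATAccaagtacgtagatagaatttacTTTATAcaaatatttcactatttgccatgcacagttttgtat
slp1 and slp2, chr2L:3832459-3832609, plus strand: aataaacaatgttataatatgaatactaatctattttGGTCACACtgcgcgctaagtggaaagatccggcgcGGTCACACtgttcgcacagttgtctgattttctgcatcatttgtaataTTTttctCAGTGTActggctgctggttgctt

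Of the 484 peaks, 208 were also in the optimal list, the peaks that passed the authors' reproducibility filter. That is 43.0% (exact 95% binomial interval 38.5 to 47.5; all intervals cover counting error only), beside 43.5% of all 5000 peaks, 38.8% of the 1380 distal peaks inside genes and 45.6% of the 3136 near a TSS. The share was therefore close to that of the 5000 peaks as a whole. The weakest peak of the 208 had a signal of 82.1 (rank 2168) and the strongest of the other 276 a signal of 81.8 (rank 2181), so membership of the optimal list separated the regions by signal. The weakest region kept had rank 4998 and a signal of 53.9 (53.89), and the next peak that met the position rule had rank 5001 and a signal of 53.86. The region nearest to a TSS lay 1003 bp away, and a peak outside genes with its summit 992 bp from a TSS was left out.

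No source used here states the scale of the signal, so its values serve to order the peaks of 1 list. The median signal of the 484 regions was 74.8 (quartiles 60.2 and 104; 53.9 to 862). Each replicate's value was taken from the strongest peak in that replicate's own list that overlapped the region. A peak was found in replicate 1 for 480 regions, in replicate 2 for 474 and in both for 470 (97.1%), beside 96% of all 5000 peaks. The median was 45.3 in replicate 1 and 33.3 in replicate 2. Replicate 1 was the higher at 361 of the 470 regions (76.8%), with a median fold of 1.32 (quartiles 1.02 and 1.84). The median log2 ratio of replicate 1 to replicate 2 was 0.40 in these regions (95% interval of the median 0.31 to 0.47), 0.45 in distal peaks inside genes (0.40 to 0.48) and 0.45 in peaks near a TSS (0.43 to 0.48), and these intervals overlap. At 92 regions (19.6%) the replicates were more than 2-fold apart, 4 of them higher in replicate 2. Folds here and below compare values of 2 lists and include any general difference in scale between them. After scaling by the median ratio of the 5000 peaks, 56 of the 470 regions (11.9%) were more than 2-fold apart. The same share was 13.6% in distal peaks inside genes and 13.7% in peaks near a TSS. In 10 pairs of regions the peaks overlapped each other and shared the same replicate peaks, so the 484 regions hold 474 separate ones.

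**Figure D1:**
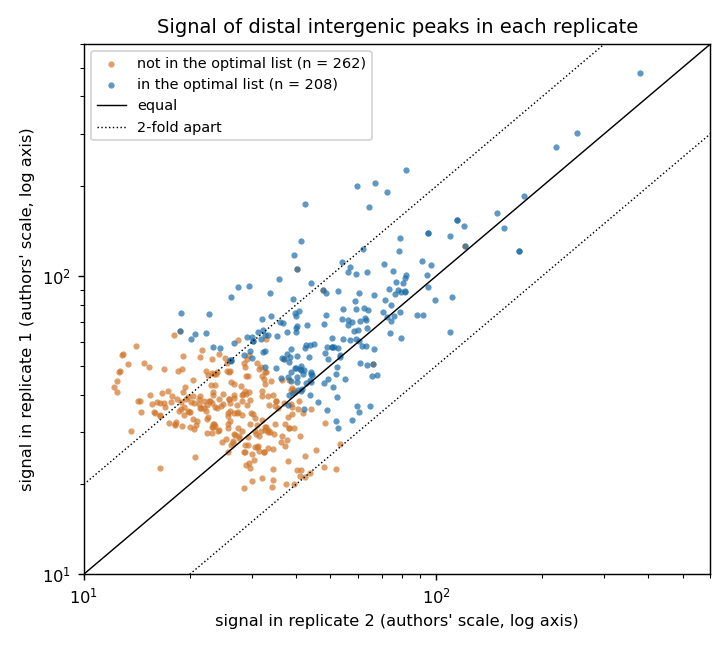
Signal in replicate 1 against replicate 2 for the 470 distal intergenic peaks with a peak in both replicate lists, on log axes in the authors' scale. Each point is 1 region, the solid line marks equal values and the dotted lines a 2-fold difference. Most points (361 of 470) lie above the line of equal values, and the 208 regions in the optimal list occupy the upper range.

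The strongest region lay between Su(z)2 and CG13323 (2R, summit 13035339), with a signal of 862 and replicate values of 480 and 379. Su(z)2 and its neighbour Psc encode related Polycomb group proteins, which keep developmental genes silent. The interval between CG13321 and Psc held another 3 regions (signals 263, 109 and 101). The first 2 of them overlap the same replicate peaks, at 154 in replicate 1 and 114 in replicate 2. In total 6 of the 484 regions (1.24%) had a Polycomb group gene as a flanking gene, all of them Psc or Su(z)2, beside 0.267% of single-copy windows.

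A single-copy window is any window of sequence of the same length as those around the summits, 100 bp on each side and the summit itself, that meets the same position rule and in which under 20% of the 24-base words recur in the genome. There were 111794 of them (22.5 Mb), and they stand here for the sequence in which such a peak could have been found.

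The next strongest regions lay between blw and CycB, the cyclin B gene (2R, summit 22802968; signal 546, replicates 301 and 251), and between COX7AL2 and CG31668 (2L, summit 2202392; signal 495, replicates 271 and 219). The interval between COX7AL2 and CG31668 is 5808 bp long and held 4 regions. On 3R the strongest region lay between CG43131 and RabGGTa (summit 5113281; 369; replicates 186 and 177), and on 3L between lncRNA:CR44363 and CG7560 (summit 11418462; 315; replicates 162 and 149). These regions had replicate values within 1.5-fold of each other. Of the 25 strongest regions, 19 had replicate values within 2-fold, 6 were more than 2-fold higher in replicate 1 and none was more than 2-fold higher in replicate 2. A long non-coding RNA gene flanked 13 of the 25.

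Other strong regions were uneven between the replicates, on values not scaled between the lists. The strongest on chromosome 4 lay between Asator and zfh2, which encodes a zinc finger homeodomain protein (summit 497910; signal 271), with 205 in replicate 1 and 66.9 in replicate 2. The strongest on X lay between Inx2, an innexin of gap junctions, and cm (summit 7004311; 235), with 171 in replicate 1 and 64.3 in replicate 2. They were 3.06-fold and 2.66-fold higher in replicate 1. Among the 200 strongest regions the ratio of replicate 1 to replicate 2 was highest beside chinmo, a zinc finger gene of neuronal timing (2L, summit 1648821; 174 and 42.3; 4.10-fold). It was 3.99-fold beside rpr, an activator of cell death (3L, summit 18403444; 75.2 and 18.9), and 3.49-fold beside Gbs-70E (3L, summit 14555116; 65.6 and 18.8). In the opposite direction, replicate 2 was 1.78-fold higher beside ptc, the Hedgehog receptor gene (2R, summit 8644406; 36.5 and 65.1). It was 1.76-fold higher between tara and bor (3R, summit 16261065; 32.9 and 57.8) and 1.73-fold higher next to foxo (3R, summit 14052277; 34.9 and 60.2). Why the replicates differed at these regions was not tested.

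The distance from summit to nearest TSS had a median of 3934 bp (95% interval of the median 3487 to 4344; quartiles 2064.5 and 7336), where single-copy windows had a median of 4580 bp. Of the 484, 115 lay 1001 to 2000 bp away (23.8%, beside 18.5% of single-copy windows), 190 lay 2001 to 5000 bp away (39.3% beside 35.0%) and 109 lay 5001 to 10000 bp away (22.5% beside 25.7%). Another 61 lay 10001 to 20000 bp away, and 9 lay over 20000 bp away (1.86% beside 6.04%). The farthest summit was 36651 bp from any TSS, between NijA and CG43245 (3L, summit 10735274; signal 104; replicates 53.3 and 53.2). The nearest TSS belonged to a protein-coding gene for 312 regions (64.5%), to a non-coding RNA gene for 159 and to another kind of gene for 13. The summit was upstream of that TSS in 273 regions (56.4%).

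**Figure D2:**
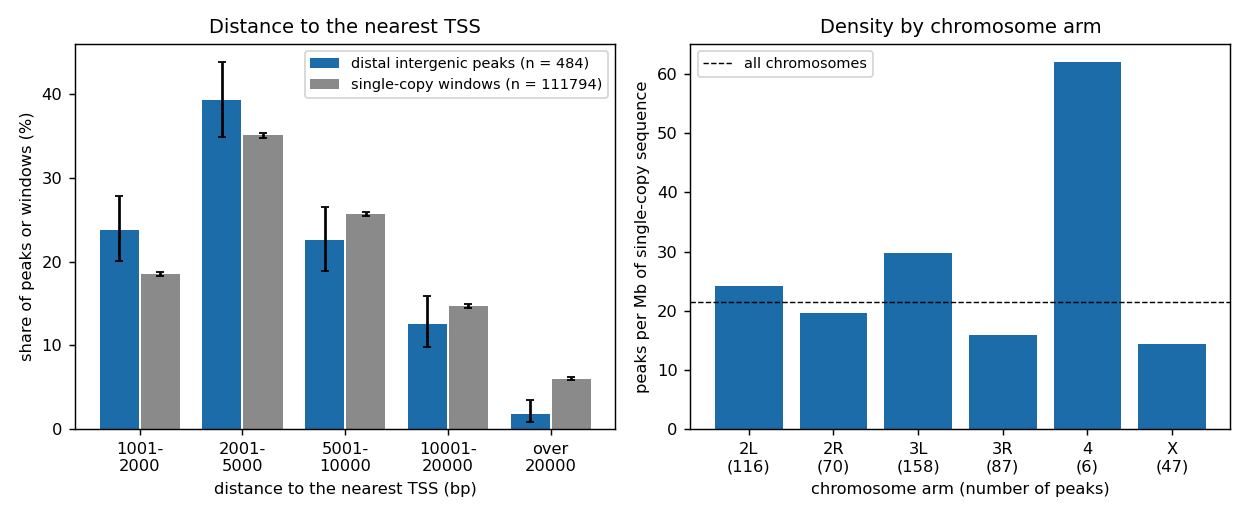
Left, share of the 484 distal intergenic peaks and of 111794 single-copy windows in each band of distance to the nearest TSS, with exact 95% binomial intervals as error bars. Right, number of regions per Mb of single-copy sequence that meets the position rule on each chromosome arm, with the dashed line at the value for all arms, 21.5 per Mb. The 1001 to 2000 bp band holds 23.8% of regions against 18.5% of windows, and arms range from 14.5 per Mb (X) to 61.9 (4, from 6 regions).

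By arm, 158 regions lay on 3L, 116 on 2L, 87 on 3R, 70 on 2R, 47 on X and 6 on 4. Per Mb of single-copy sequence under the rule this was 29.7 on 3L, 24.3 on 2L, 19.6 on 2R, 16.0 on 3R and 14.5 on X. The value for chromosome 4 was 61.9, from 6 regions in 0.0969 Mb. Of the 484 summits, 2 (0.413%) lay in an annotated transposon, beside 0.217% in distal peaks inside genes, 0.159% near a TSS, 1.56% of single-copy windows and 11.4% of all 166264 windows that meet the position rule. In 452 regions (93.4%) every 24-base word of the window was single in the genome, beside 92.0% of distal peaks inside genes, 94.4% of peaks near a TSS, 87.8% of single-copy windows and 59.1% of all windows. How repeated sequence was treated in mapping is stated in no source used here, and its part in this difference was not tested.

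The 484 regions fell in 335 intervals between flanking genes, and 90 of these intervals held at least 2, for 239 regions in all. Another member lay within 10 kb of 245 regions (50.6%; interval 46.1 to 55.2), where 16.4% of single-copy windows had a member within that distance. With each of the 10 overlapping pairs counted once, these numbers were 88 intervals with at least 2 and 232 of 474 regions (48.9%). The interval between NijA, which encodes a ninjurin membrane protein, and CG43245 held 7 regions across 31607 bp. Intervals with 6 regions each lay between lncRNA:CR44363 and CG7560 on 3L, between lncRNA:CR44603 and lncRNA:CR45695 on 2L, and between tRNA:Ile-TAT-1-2 and CG13898 on 3L. The 6 between lncRNA:CR44363 and CG7560 spanned 13656 bp and had signals of 315, 143, 138, 104, 98.0 and 58.3. The first of them stood apart from the rest in both replicates, at 162 and 149 against at most 80.0 and 74.2. The 6 between lncRNA:CR44603 and lncRNA:CR45695 had signals of 297, 150, 146, 136, 67.3 and 59.1, and the first 2 of these share the same replicate peaks (121 and 172).

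A segmentation gene was a flanking gene of 28 regions (5.79%, interval 3.88 to 8.25), where it was of 2.64% of single-copy windows. Of the 28, 10 were in the optimal list, beside 208 of all 484 regions (43.0%). These 28 regions had 14 of the list's 32 genes as flanking genes. The strongest lay between slp1 and slp2, a pair of forkhead factors that act in segmentation (2L, summit 3832534; signal 304; replicates 144 and 156). A second region in that interval had a signal of 104 (replicates 52.6 and 49.4), and a region on the far side of slp2 had 55.6 (replicates 25.8 and 31.4). In each of these the replicates were within 1.5-fold.

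The head gap genes ems and oc, both homeobox factors, had 5 and 3 regions. Those of oc had signals of 112, 111 and 70.7, with 61.0, 65.1 and 33.7 in replicate 1 and 56.9, 39.9 and 37.9 in replicate 2. The strongest beside ems had 112 (replicates 51.1 and 60.6), and the other 4 ranged from 54.4 to 81.4. The interval between the Wnt ligand genes Wnt4 and wg held 4 regions, with signals of 103, 92.9, 64.6 and 55.4. Their values were 45.3, 39.4, 38.9 and 28.96 in replicate 1 and 49.4, 52.2, 26.7 and 27.5 in replicate 2. The pair-rule gene odd had 3 regions (83.2, 80.5 and 65.1), en had 2 (82.9 and 55.0), and the gap gene kni had 2 (66.0 and 61.8). The second of the kni regions had a peak in replicate 1 only, at 54.7. The Hedgehog receptor gene ptc had 1 region (99.3), and hh, opa, ftz and the Wingless receptor genes fz and fz2 had 1 each, from 53.9 to 65.9.

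Homeobox genes flanked 35 regions (7.23%; interval 5.09 to 9.91), beside 4.92% of single-copy windows, so the window share lay just below the interval. Besides those named, they included tup (151; replicates 75.8 and 70.4), Awh (126; replicates 68.5 and 56.4) and toy (123; replicates 83.4 and 39.2), factors of neural, imaginal disc and eye development. Genes for secreted Wnt, Hedgehog, BMP, FGF and related ligands flanked 10 regions (2.07% beside 1.11%), among them vn with 2 and the interval between pyr and ths, both FGF genes, with 2. Dorsoventral patterning genes flanked 7 (1.45% beside 0.951%). The homeotic complexes flanked 2 regions (0.413%, beside 0.302% of single-copy windows), next to zen2 (55.5) and ftz (54.6), and both lay just above the weakest signal kept. Notch pathway genes flanked 4 regions (0.826%; interval 0.226 to 2.10), beside 0.294% of single-copy windows: the Bearded family genes E(spl)malpha-BFM (119; replicates 91.7 and 27.4) and Tom (88.9; replicates 55.8 and 32.8), fng, a glycosyltransferase that modifies Notch (90.5; replicates 44.0 and 40.3), and the ligand gene Ser (59.6), which had a peak in replicate 1 only (47.6). Proneural and neural determination genes flanked 6 regions (1.24%), the same share as of single-copy windows (1.24%). The strongest of these lay beside SoxN (264; replicates 191 and 72.6).

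Transfer RNA genes flanked 19 regions (3.93%; interval 2.38 to 6.06), beside 2.02% of single-copy windows. These 19 regions had 11 tRNA genes as flanking genes, and 9 of the 19 lay beside tRNA:Ile-TAT-1-1 or tRNA:Ile-TAT-1-2 on 3L. The strongest lay beside tRNA:Ile-TAT-1-1 (summit 762517; 171; replicates 103 and 63.4), and its summit was 6986 bp away from any TSS. Long non-coding RNA genes flanked 248 regions (51.2%; interval 46.7 to 55.8), beside 45.9% of windows. Chemoreceptor and odorant-binding protein genes, held in 1 list, flanked 6 regions (1.24% beside 3.57%) and cuticle protein genes 1 (0.207% beside 0.865%). Ribosomal protein genes flanked 2 regions (0.413% beside 0.567%), nuclear receptor and ecdysone response genes 2 (0.413% beside 0.921%) and small nuclear RNA genes 1 (0.207% beside 0.215%). Replication-dependent histone genes flanked 0 of 484, but they also flanked 0% of single-copy windows, so this list allowed no comparison. Over all genes, a flanking gene had an NC2alpha peak of the 5000 within 500 bp of a TSS for 41.5% of regions (interval 37.1 to 46.1), beside 18.5% of single-copy windows. For the gene of the nearest TSS these shares were 24.8% and 8.74%. Regions in the same interval share their flanking genes, while the binomial intervals treat regions as independent and are therefore too narrow.

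The summits lay in short AT-rich stretches. The median GC content of the window of 100 bp on each side was 38.3% (95% interval of the median 37.3 to 39.3; quartiles 33.8 and 42.9), against 38.8% in distal peaks inside genes, 40.3% near a TSS and 41.8% in single-copy windows. By distance, mean GC was 37.8% within 50 bp of the summit, 43.8% at 250 to 300 bp and 40.0% at 700 to 750 bp. Distal peaks inside genes had the same shape, from 39.3% within 50 bp to 43.9% at 200 to 250 bp. Peaks near a TSS had 42.0% within 50 bp. The TATA box TATAAA was present in 27.3% of the 484 windows (interval 23.4 to 31.5), beside 23.0% of single-copy windows, 24.2% of distal peaks inside genes and 25.8% of peaks near a TSS. GAGA factor's GAGAG was present in 25.2%, beside 19.9% of single-copy windows and 27.5% of peaks near a TSS.

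**Figure D3:**
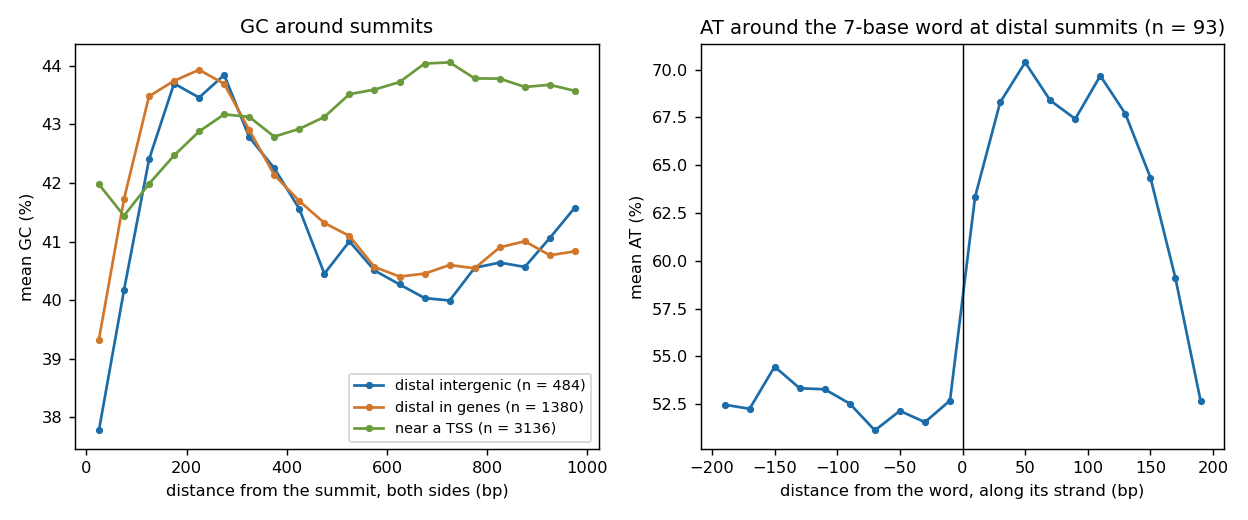
Left, mean GC content in 50-bp bins by distance from the summit, both sides together, for the 484 distal intergenic peaks, 1380 distal peaks in genes and 3136 peaks near a TSS. Right, mean AT content in 20-bp bins around 93 occurrences of the 7-base word that have a distal intergenic summit within 200 bp on their 3' side, read along the word. GC is lowest at distal summits (37.8%) with a shoulder at 150 to 300 bp. AT steps from 52.7% just before the middle base of the word to 70.4% at 40 to 60 bp after it.

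The Dref element TATCGATA was present in 0.207% of the distal intergenic windows against 5.26% of those near a TSS, and the M1BP element GGTCACAC in 0.620% against 3.79%. In distal peaks inside genes these shares were 0.435% and 0.362%, and in single-copy windows 0.329% and 0.260%. Low shares of both elements were therefore common to the sequence away from a TSS. The E-box CAGCTG was present in 5.37% against 12.8% near a TSS, 10% in distal peaks inside genes and 7.68% in single-copy windows. CTCF's core AGGTGGCGC was present in 8 windows (1.65%; interval 0.716 to 3.23), beside 1.09% of distal peaks inside genes, 0.829% of peaks near a TSS and 0.114% of single-copy windows, and the intervals of the 3 classes of peak overlap. A looser form with 2 open positions, AGNNGGCGC, was chosen after values were seen and was present in 26 windows (5.37%), beside 4.20%, 3.99% and 1.44%, again with overlapping intervals among the classes of peak. The Su(Hw) core TGCATACTT was present in 11 windows (2.27%; interval 1.14 to 4.03), beside 0.435% of distal peaks inside genes, 0.446% of peaks near a TSS and 0.535% of single-copy windows. Within 100 bp of the summits there were 11 Su(Hw) matches, or 0.114 per kb, where 500 to 1000 bp away there were 0.0165 per kb. For the CTCF core these densities were 0.103 and 0.0103 per kb. One region, between osp and CG15282 (2L, summit 14706436; signal 170; replicates 89.9 and 77.9), held both cores.

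Other motifs at least 1.5 times as frequent here as in all windows under the rule were the Mad site GGCGCCA (16 regions, 3.31% beside 1.67% of single-copy windows), the GATA site TGATAAG (21, 4.34% beside 2.36%), and GGTCACAC, AACCGGTT and GAGAGAGA, with 3, 1 and 7 regions. The GATA site had 0.227 matches per kb within 100 bp of the summits and 0.202 per kb 500 to 1000 bp away. These densities were 0.279 and 0.0992 for the Mad site and 0.258 and 0.269 for GAGAGAGA. From few matches, they were 0.0413 and 0.0145 for GGTCACAC and 0.0103 and 0.0124 for AACCGGTT. In 9 of the 16 regions with the Mad site, that match overlapped a match of the looser CTCF form. The Mad and GATA shares of distal peaks inside genes (3.26% and 4.64%) and of peaks near a TSS (3.73% and 3.64%) were close to those of the 484. The strongest region with the GATA site lay between lncRNA:CR44853 and lncRNA:CR44854 (2L, summit 14557002; 259; replicates 201.05 and 59.6), and the strongest with the Mad site between Sid and snu (3R, summit 28672389; 178; replicates 73.8 and 91.4). The strongest with the Su(Hw) core lay beside Glut3 (3R, summit 16798885; 186; replicates 91.6 and 94.8). The homeodomain site TAATTA was present in 12.2% beside 15.5%, the Stat92E site TTCNNNGAA in 3.93% beside 5.84%, and the Zelda site CAGGTAG in 2 regions (0.413% beside 0.812%). The Initiator TCAGTT was present in 16.7% (interval 13.5 to 20.4) beside 12.6%, and the forkhead site TGTTTAC in 5.58% (interval 3.71 to 8.01) beside 3.68%. Distal peaks inside genes and peaks near a TSS held the forkhead site more often (8.70% and 7.05%) and the Initiator less often (11.9% and 13.0%). The remaining motifs were present at 0.584 to 1.42 times their share of single-copy windows, apart from the nuclear receptor site TCAAGGTCA, which was found in 0 of 484.

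**Figure D4:**
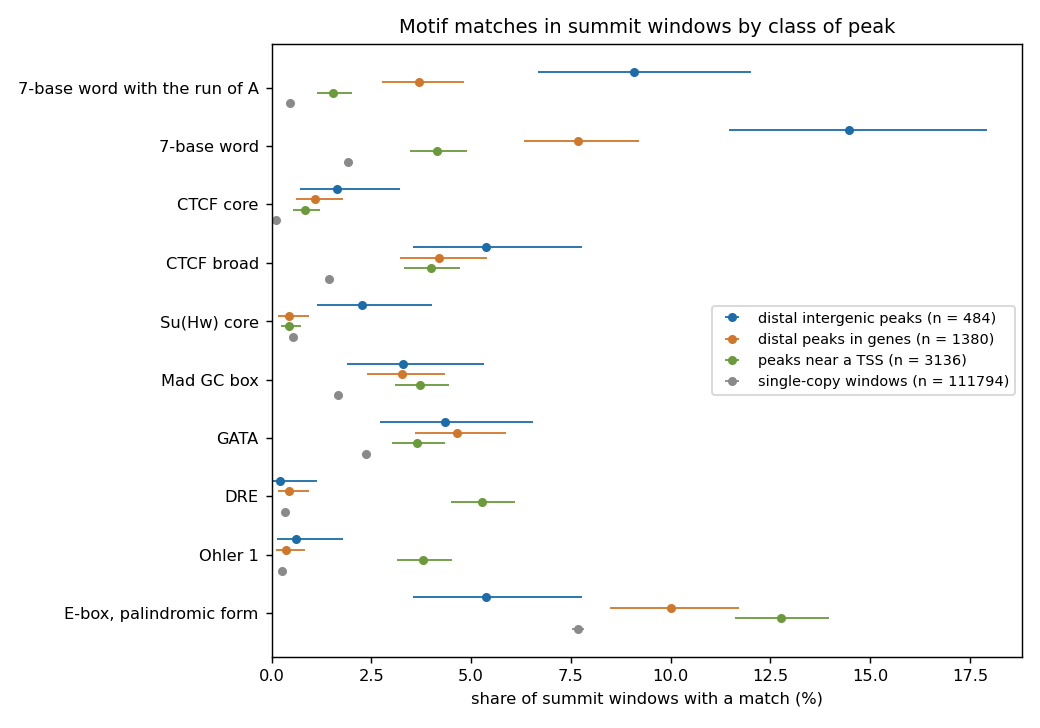
Share of summit windows, 100 bp on each side, with at least 1 match, on either strand, in the 484 distal intergenic peaks, 1380 distal peaks in genes, 3136 peaks near a TSS and 111794 single-copy windows, with exact 95% binomial intervals. The 7-base word was found in 14.5% of distal intergenic peaks and 4.15% of peaks near a TSS, and the Dref element (DRE) in 0.207% and 5.26%. Single-copy windows held the Dref element at 0.329%. CTCF broad is the looser CTCF form and Ohler 1 the M1BP element.

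The word TACACTG was reached by inspection. All 6-base words found within 50 bp of the summits of at least 20 of the 484 regions, 805 in all, were ranked by that share over their density 501 to 1000 bp away. ACACTG led, in 53 regions (11.0% against 3.10%, a ratio of 3.53). Its ratio was 2.08 in distal peaks inside genes (7.32% of summits) and 2.39 in peaks near a TSS (9.82%). The next 9 words at the 484 regions had ratios of 2.16 to 2.53, and they included AGTGTA, the reverse complement of TACACT, and GTACAC. The letters around ACACTG were then read, and the 7-base word, the AAA and the side of the summit were chosen from the same regions. Values for these regions therefore carry no test. Distal peaks inside genes, peaks near a TSS and weaker distal peaks were not used to choose them, but come from the same libraries.

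TACACTG was present in the windows of 70 regions (14.5%; interval 11.5 to 17.9), in 7.68% of distal peaks inside genes, in 4.15% of peaks near a TSS and in 1.92% of single-copy windows. With AAA from the fifth base after it, the word was present in 44 regions (9.09%; interval 6.68 to 12.01), and in 3.70%, 1.53% and 0.471% of the other classes in the same order. Of 561 distal intergenic peaks ranked 5001 to 10000, 4.10% held the word and 2.67% the longer form, and of 2914 ranked 10001 to 30000 these were 2.95% and 1.24%. Within the 484 the share followed no order with rank. The word was present in 10 of 86 regions in ranks 1 to 1000 (11.6%), 18 of 96 in ranks 1001 to 2000 (18.8%) and 14 of 113 in ranks 4001 to 5000 (12.4%). It was present in 32 of the 208 regions in the optimal list (15.4%) and 38 of the other 276 (13.8%).

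At 73 matches with enough sequence after them, A was the letter at 79.5%, 87.7% and 82.2% of the fifth, sixth and seventh positions after the word. The AAA was chosen from these regions. In classes not used to choose it, the shares were 72.6%, 74.3% and 64.6% at 113 matches in distal peaks inside genes. They were 59.7%, 66.4% and 63.4% at 134 matches in peaks near a TSS. At 2061 matches in single-copy windows these shares were 50.5%, 51.7% and 52.3%. The strongest region with the longer form was the one between slp1 and slp2, whose site is shown above. Other strong ones lay beside tup (151), 18w, a Toll family receptor gene (145; replicates 73.2 and 75.9), and Doc2, a T-box gene (132; replicates 64.3 and 74.1). The interval beside Doc2 held 2 such regions, the second with a signal of 104. In the 44 regions the signal ranged from 53.9 to 304 with a median of 82.7, and the median log2 ratio of replicate 1 to replicate 2 was 0.29. A segmentation, homeobox or ligand gene flanked 5 of the 44 (11.4%), a share close to the 57 of all 484 regions (11.8%).

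The summit lay on one side of the word. Within 200 bp of the summits there were 61 matches of the longer form, in 53 regions. Read along the word, the summit lay on its 3' side, where the run of A is, at 60 matches and on its 5' side at 1 (98.4%). The median distance was 64 bp (quartiles 37.75 and 91.5). For TACACTG without the AAA requirement the summit was on the 3' side at 95 of 104 matches. In distal peaks inside genes the longer form had 68 matches with the summit on the 3' side and 6 on the 5' side, in peaks near a TSS 76 and 8, and in distal intergenic peaks ranked 5001 to 10000, 25 and 8. Where the distal intergenic peaks were taken from each replicate's own 5000 strongest peaks, the numbers were 41 and 2 in replicate 1 and 54 and 6 in replicate 2. The TATA box, counted in the same way at the 484 regions, had 149 and 161, the Mad site 20 and 20, the looser CTCF form 17 and 32, and the Su(Hw) core 7 and 6. Motifs that overlap themselves or lie in the same region are not independent, and no test was run.

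**Figure D5:**
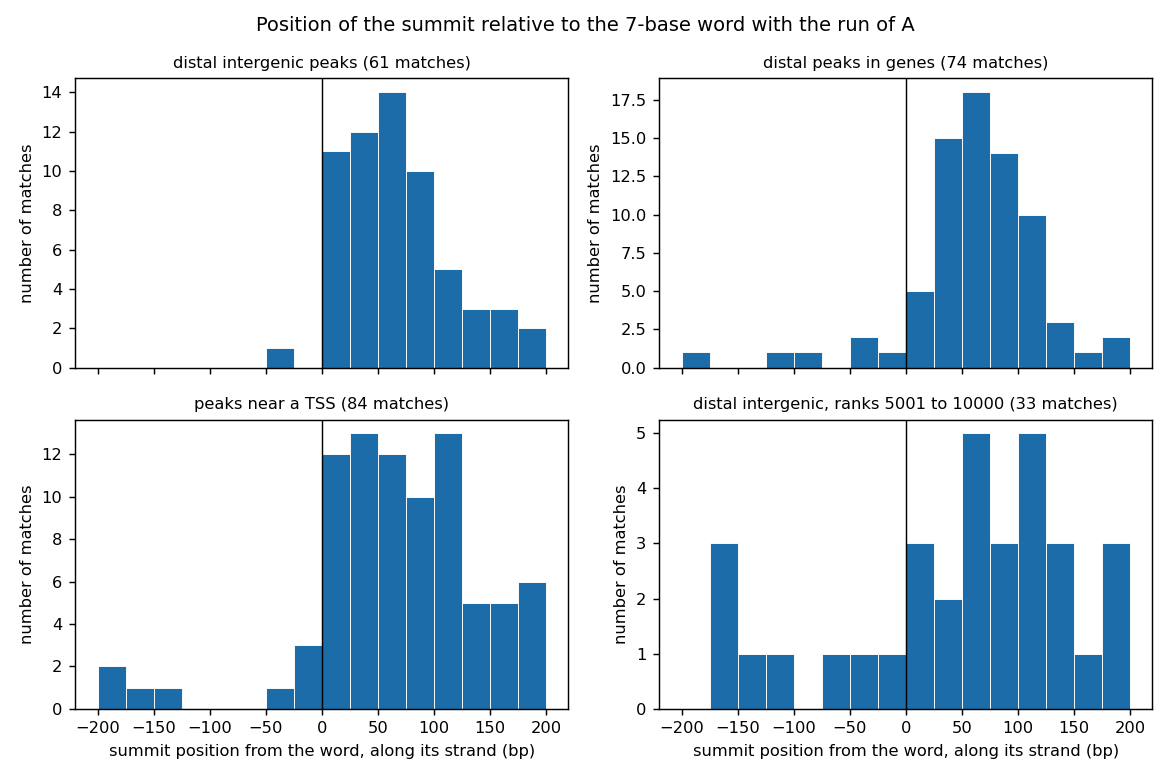
Position of the summit relative to each match of the 7-base word with the run of A, in 25-bp bins along the strand that reads the word, for 4 sets of peaks. Positive values place the summit on the 3' side, where the run of A is. The 61 matches at distal intergenic peaks have 60 summits on that side, and the 33 matches at ranks 5001 to 10000 have 25.

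Base composition also differed between the sides of the word. Bins were counted from the middle base of the word. Around 93 occurrences of TACACTG with a distal intergenic summit on the 3' side, mean AT was 51.1% to 54.5% in every 20-bp bin of the 200 bp before that base. It was 63.3% in the bin that starts at that base, 70.4% at 40 to 60 bp and 52.7% at 180 to 200 bp. The AT-rich stretch thus covered the positions at which the summits lay. Most copies of the longer form had no peak. Of 594 occurrences in sequence that meets the position rule, 59 had one of the 484 summits within 200 bp on the 3' side (9.93%), and 444 (74.7%) had no summit of the 30000 pooled peaks within 200 bp on either side. At those 444 the median AT content was 54% in the 100 bases before the word and 70.5% in the 100 bases after the match, and at the 59 it was 49% and 70%. For TACACTG without the AAA requirement, these medians were 57% and 63% at 3005 copies with no pooled summit within 200 bp. At the 93 occurrences above they were 51% and 69%. A step in composition was therefore present at copies without a peak as well, but it was smaller there. Whether the word, the AT-rich stretch or another feature goes with binding was not tested, and no protein is named for the word here.

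Together, TACACTG, the looser CTCF form or the Su(Hw) core was present in 100 of the 484 regions (20.7%). The same share was 12.03% in distal peaks inside genes, 8.35% in peaks near a TSS and 3.84% in single-copy windows. The word and the looser CTCF form were both present in 4 regions, the word and the Su(Hw) core in 1, and the CTCF form and the Su(Hw) core in 2. None of the 3 was found in the other 384 regions (79.3%), among them the strongest one beside Su(z)2, whose window held a GAGAG match of the motifs searched.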

How the data were processed

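NC2alpha-eGFP chromatin was precipitated with an anti-GFP antibody from 2 biological replicates and sonicated to 200 to 800 bp, per the labels. Peaks and background were called by the authors on each replicate and on both pooled against a control alignment, and the optimal list was derived from them through the irreproducible discovery rate, per the notes deposited with the files. No source used here names the caller, the aligner or the threshold. Signal values were taken unchanged from the lists the authors deposited. The -log10 q-value was used as deposited only to describe the lists; it reached its maximum of 3.59 in 178 of the 484 regions. Summits were placed from the offset (other) that the authors deposited with each peak. Sequencing depth is unknown. The lists held 30000 pooled, 30000 and 30000 replicate and 2174 optimal peaks, most of them 404, 410 and 390 bp wide; widths and list lengths are set by the calling.

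Coordinates are dm6, counted from 1. Ensembl release 115 gave 18164 genes and 23581 TSS positions on 6 chromosome arms, and 5809 annotated transposons were not counted as genes. Motifs were matched exactly on both strands. The motifs whose letters are not given with the results are CACGTG for one E-box form, CATATG for the second, CAGGTG for the third, TGANTCA for AP-1 sites, GTGGGAA for Su(H) sites, ACATTCC for Scalloped sites, AACCACA for Runt sites, GCCATNTT for Pho sites, ACCGGAAG for ETS sites and CACACACA for the repeat. AACCGGTT is the Grainyhead site. GAGAG lies within GAGAGAGA and AGGTGGCGC within AGNNGGCGC. Gene lists numbered 16. Binomial intervals are exact (Clopper-Pearson) at 95%, medians have order-statistic intervals, and both treat regions as independent. Computation used Python 3.11.15, numpy 2.4.6, pandas 2.3.3, scipy 1.17.1 and matplotlib 3.10.9, and the scripts were tested on simulated data. The regions, motifs and gene lists were chosen with earlier results of these data known. The named regions are the 25 strongest as a group, the strongest of each arm and motif, the extremes of distance and replicate ratio, the fullest intervals and those beside listed genes; others were named after their values were seen. Single-copy windows as a comparison, the minimum of 20 regions per 6-base word, the treatment of transposons and the words TACACTG and AGNNGGCGC were also chosen after the data were seen. The sequence of 1 site is not reported here.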

Additional observations from a re-analysis of the deposited data

How the results depend on the processing

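The number of regions was 238 among the strongest 2500 pooled peaks, 1045 among the strongest 10000 and 208 in the optimal list. The share in the optimal list was 87.4% and 19.9% in the first 2 sets, and 36.1% to 48.4% where each replicate's own list stood in for the pooled one. The median distance to a TSS was 3031 bp with a limit of 500 bp, 4888 bp with a limit of 2000 bp and 2775 bp where protein-coding genes alone excluded a peak. A peak in both replicates was found for 99.6% of the strongest 2500, 89.1% of the strongest 10000 and 100% of the optimal list, and for 82.3% to 90.8% with 1 replicate's list. The median log2 ratio of the replicates was 0.30 in the strongest 2500 and 0.30 in the optimal list. It was 0.077 where replicate 2's list alone chose the regions and 0.65 where replicate 1's list did. Median GC was 40.8% in the strongest 10000, 36.6% within 50 bp of the summit and 40.6% within 200 bp. Windows with repeated 24-base words made up 0% of the optimal list and 1.51% where protein-coding genes alone excluded a peak. Another region lay within 10 kb of 39.5% in the strongest 2500, 64.8% in the strongest 10000, 37.0% in the optimal list and 58.4% where protein-coding genes alone excluded a peak, and of 45.8% to 48.9% without 1 replicate. The share of matches of TACACTG with AAA whose summit lay on the 3' side was 100% in the strongest 2500, 90.4% in the strongest 10000 and 100% in the optimal list, and 90% to 93.2% without 1 replicate. The share with TACACTG was 8.9% in the strongest 10000 and 10.9% or 11.1% with 1 replicate's list. In total 462 of 520 values for single motifs and gene lists moved by less than their interval. The log2 ratio of the replicates stayed above 0 in all alternatives run, but no conclusion is drawn from its sign. Where 1 replicate's list chose the regions, the value used to choose them was also part of the ratio. The 46 motifs and lists were also set against the share of single-copy windows under the 5 alternatives that keep the position rule and window length, which was decided with values known. Of the 18 whose interval left out the window share, 0 changed sides. Of the rest, 14 did in at least 1 alternative: in the optimal list GAGAGAGA was at 0.481% (below 0.996%) and the homeotic complexes at 0%, and ribosomal protein genes were at 0.766% in the strongest 10000 (above 0.567%). The alternatives share peaks and libraries with the main set, so an unchanged side is no independent support. The 18 also include TACACTG, its longer form and AGNNGGCGC, which were chosen from these regions. For several of the 18, however, the interval covered the window share in at least 1 alternative. Homeobox genes were at 5.04% in the strongest 2500 (interval 2.63 to 8.64), which covers the window share of 4.92%. Segmentation genes were also at 5.04% there (2.63 to 8.64) and at 4.81% in the optimal list (2.33 to 8.66). Both intervals cover their window share of 2.64%, which the other alternatives left out. In the optimal list, transfer RNA genes, the Initiator, the Mad site and the forkhead site had such intervals too. The intervals of the CTCF core and of Polycomb group genes left out the window share in every alternative. Counting transposons as genes, added after the data were seen, left 463 regions. No paired analysis was possible because the study has a single group. The depth of the libraries is unknown, so nothing here limits a region by depth. The cause of these differences was not tested, apart from those that follow from fewer or weaker peaks entering the set.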
